A study of Mus musculus with 6 samples.

Results

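The genes for creatine kinase (Ckm, Ckb, Ckmt1 and Ckmt2), adenylate kinase (Ak1), AMP deaminase (Ampd1 and Ampd3) and myoglobin (Mb) were examined in differentiating C2C12 cells. They were chosen by name, by taking every non-control probe whose RefSeq accession belongs to 1 of these 8 genes. This gave 9 of the 39429 probes on the array, 2 for Ckb and 1 for each of the other genes, and 8 of the 20659 gene symbols that have a probe. C2C12 is a mouse myoblast line that leaves the cell cycle and fuses into myotubes when serum is lowered. The cells received either si-SYISL, a small interfering RNA against the long non-coding RNA SYISL (3 arrays), or the control oligo si-NC (3 arrays). All of them were then kept for 2 days in DMEM with 2% horse serum, so every group is differentiating and none is untransfected. The comparison asks which genes differ when SYISL is targeted on day 2 of differentiation.

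Creatine kinases move phosphate between ATP and creatine, so that phosphocreatine can restore ATP where it is used fastest. Muscle uses the cytosolic form Ckm and the mitochondrial form Ckmt2, while Ckb and Ckmt1 are the cytosolic and mitochondrial forms of brain and many other tissues. Ckb is the form of myoblasts, and Ckm takes over as they become myotubes. Adenylate kinase recovers ATP from ADP and leaves AMP, which AMP deaminase turns into IMP. Ampd1 is the form of skeletal muscle and Ampd3 a broadly expressed form first known from red blood cells. Myoglobin holds oxygen in muscle fibres.

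The arrays were not 6 independent samples. Over 399 probes printed at least 10 times, replicate 1 differed from replicate 3 by less than spot noise, with a chi-square per probe of 0.219 in si-SYISL and 0.26 in si-NC, against 25 to 166 for the other 13 pairs of arrays. The deviations of individual spots from their probe's mean correlated at r = 0.788 in si-SYISL and 0.862 in si-NC, over spots that share their place on the array, and at r = 0.26 to 0.426 in the other pairs. In each group these arrays had the same place on the slide, in different scans. Their mean was used as 1 sample, so each group has 2 samples. The labels name no separate cultures, and a p-value here reflects the spread among these samples alone, which may be technical. Between 87.9% and 90.6% of spots were well above background on the si-SYISL arrays and between 78.2% and 84.6% on the si-NC arrays, and 0 spots were saturated. All 7 muscle markers were well above background on all 6 arrays. Their summed intensity was 180000 to 186000 in si-SYISL and 142000 to 153000 in si-NC. Marker sums, here and below, weight each gene by the brightness of its probe and are not a level of a cell type. Chrna1, Myh3 and Acta1 were the brightest of the muscle markers. The table used to name probes has 0 entries for SYISL, so the knockdown was not checked here. Synpo2, whose locus holds SYISL, differed by -0.29 ± 0.26 on the log2 scale, si-SYISL minus si-NC and relative to the median of all features (standard error, limma adjusted p = 0.763).

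The stretches of DNA before the gene starts are shown here for the 4 creatine kinases and for Mb at its start 2. The windows of Ak1 and Ampd3 and of the other starts of Mb and Ckmt1 are not printed. The printed set was not picked apart from the results. Any link between matches and differences was not tested. The windows are the 250 bases before an annotated start, from RefSeq on GRCm38.p6, 5′ to 3′ on the gene's strand. Capitals mark each match to CANNTG, the E-box that muscle factors of the MyoD family and many other proteins can bind. The Ckm window is chr7:19410844-19411093 on the plus strand and the Ckmt2 window chr13:91876886-91877135 on the minus strand. The Mb window is chr15:77022788-77023037 on the minus strand, 1 of 3 annotated starts. The Ckb window is chr12:111672339-111672588 on the minus strand, and the Ckmt1 window chr2:121357526-121357775 on the plus strand is 1 of 2.
Ckm: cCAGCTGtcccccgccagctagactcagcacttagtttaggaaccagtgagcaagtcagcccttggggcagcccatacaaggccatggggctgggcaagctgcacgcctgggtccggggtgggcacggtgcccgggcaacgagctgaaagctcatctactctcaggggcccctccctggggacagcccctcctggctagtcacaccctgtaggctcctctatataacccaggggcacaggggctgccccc
Ckmt2: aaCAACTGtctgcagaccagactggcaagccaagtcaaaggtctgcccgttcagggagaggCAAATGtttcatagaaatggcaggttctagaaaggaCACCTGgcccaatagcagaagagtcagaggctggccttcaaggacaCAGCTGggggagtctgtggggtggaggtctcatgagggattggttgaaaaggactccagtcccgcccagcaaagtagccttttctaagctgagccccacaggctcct
Mb: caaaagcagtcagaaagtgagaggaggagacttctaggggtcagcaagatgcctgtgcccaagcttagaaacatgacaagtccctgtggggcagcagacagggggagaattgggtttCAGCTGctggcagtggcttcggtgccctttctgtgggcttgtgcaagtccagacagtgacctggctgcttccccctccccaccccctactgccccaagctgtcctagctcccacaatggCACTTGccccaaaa
Ckb: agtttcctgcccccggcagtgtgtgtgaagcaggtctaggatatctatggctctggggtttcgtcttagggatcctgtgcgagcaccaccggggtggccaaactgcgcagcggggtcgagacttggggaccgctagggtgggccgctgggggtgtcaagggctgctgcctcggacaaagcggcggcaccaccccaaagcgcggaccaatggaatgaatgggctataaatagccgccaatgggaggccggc
Ckmt1: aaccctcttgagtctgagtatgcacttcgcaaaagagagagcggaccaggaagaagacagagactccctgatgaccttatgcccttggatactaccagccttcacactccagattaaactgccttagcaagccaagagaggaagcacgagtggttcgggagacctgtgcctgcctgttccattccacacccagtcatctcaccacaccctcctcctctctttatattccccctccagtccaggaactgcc

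CAGCTG, a form of the E-box, stands in the windows of Ckm, Ckmt2 and Mb, 249, 107 and 133 bases before the start. The Ckmt2 window holds 4 CANNTG matches, the Mb window 2 and the Ckm window 1. The printed windows of Ckb and Ckmt1 hold 0, while the windows of Ampd3, which are not printed, hold 1, 3 and 0. CANNTG is in each of the 4 windows of Ak1 and CAGCTG in 2 of them. The window of Mb start 1 lacks CAGCTG. The Ckb window has TATAAA 28 bases before the start, inside a match to the MEF2 site, and the Ckmt1 window has the reverse strand of TATAAA. Only these exact letters were searched, and the similar TATATAA near the end of the Ckm window was not counted. Over both strands, CANNTG is in 66.2% of all 32851 such windows, CAGCTG in 13.0%, TATAAA in 12.4% and the MEF2 site in 2.92%. In all, 7 of the 8 genes had 15 windows, of which 11 held CANNTG and 6 held CAGCTG. Windows of a gene can overlap, and the CAGCTG of Mb is counted at both start 2 and start 3. Ampd1 has no entry. These are matches of letters and not measured binding, and they say nothing of sites outside the windows.

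In si-SYISL cells the probes of Mb, Ckm and Ckmt2 were brighter than in si-NC cells on every array, while those of Ckb, Ckmt1 and Ampd3 overlapped between the groups. Mb was 1.97-fold and Ckm 1.57-fold higher, relative to the median of all features. Ckmt2 was seen above background only in si-SYISL. In a bulk extract, more cells of a type and more RNA per cell cannot be told apart. The muscle marker genes Acta1, Myh3 and Tnnt1 also lay higher on all si-SYISL arrays (log2 differences from the overall median, with standard error, of 0.56 ± 0.15, 0.62 ± 0.12 and 0.66 ± 0.11), Myog and Des overlapped and Chrna1 and Myod1 lay lower (-0.28 ± 0.11 and -0.78 ± 0.13). Their part in the differences, and that of the larger share of spots above background in si-SYISL, was not tested. None of the 8 genes passed the test over all features: limma called 0 of 28555 features at an adjusted p of 0.05, so percent called is 0%, and the smallest adjusted p was 0.0842. At an unadjusted p under 0.05, 3 of the 8 genes were higher and 0 lower, or 37.5%, where 16.8% of all features were higher and 5.85% lower. Those shares of all features were 9.51% and 8.9% after quantile normalisation and 8.8% and 9.96% after a shift to equal medians, with 3 of the 8 genes higher and 0 lower in each. Ckmt2 is among the 3 of the reported scaling and was kept by the filter on dim probes only through its si-SYISL arrays. These counts are thus a description. Among the 8 genes, 5 (62.5%) had no overlap between groups and were higher in si-SYISL, where 46.3% of all features were. Ckmt2 and Ampd1, which are among the 5, were kept by the filter on dim probes only through their si-SYISL arrays, so the count is a description. The reverse held for 0 of the 8, against 15.8% of all features. The count without overlap moved with the scaling. It was 3 of 8 after quantile normalisation, where the shares of all features were 30.3% and 24.1%, and 3 higher and 2 lower after a shift to equal medians, where they were 27.7% and 25%. The higher genes were Ckm, Mb and Ckmt2 in both cases, and the lower ones Ckb and Ckmt1.

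Intensities below are Feature Extraction signals after each array was scaled to the same 75th percentile. They can be compared between arrays for 1 probe and not between probes. Log2 differences are si-SYISL minus si-NC with their standard error over 2 samples in each group. They are given relative to the median of all features, which was itself 0.16. With features split by brightness into 4 sets, the median was 0.36 in the dimmest set and 0.08 in the brightest. Subtracting the overall median does not remove this dependence on brightness. The adjusted p tests the difference before that subtraction. Testing required that 1 group have the probe well above background on each of its 3 arrays. All 8 genes met this, Ckmt2 and Ampd1 only through the si-SYISL arrays.

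**Figure D1:**
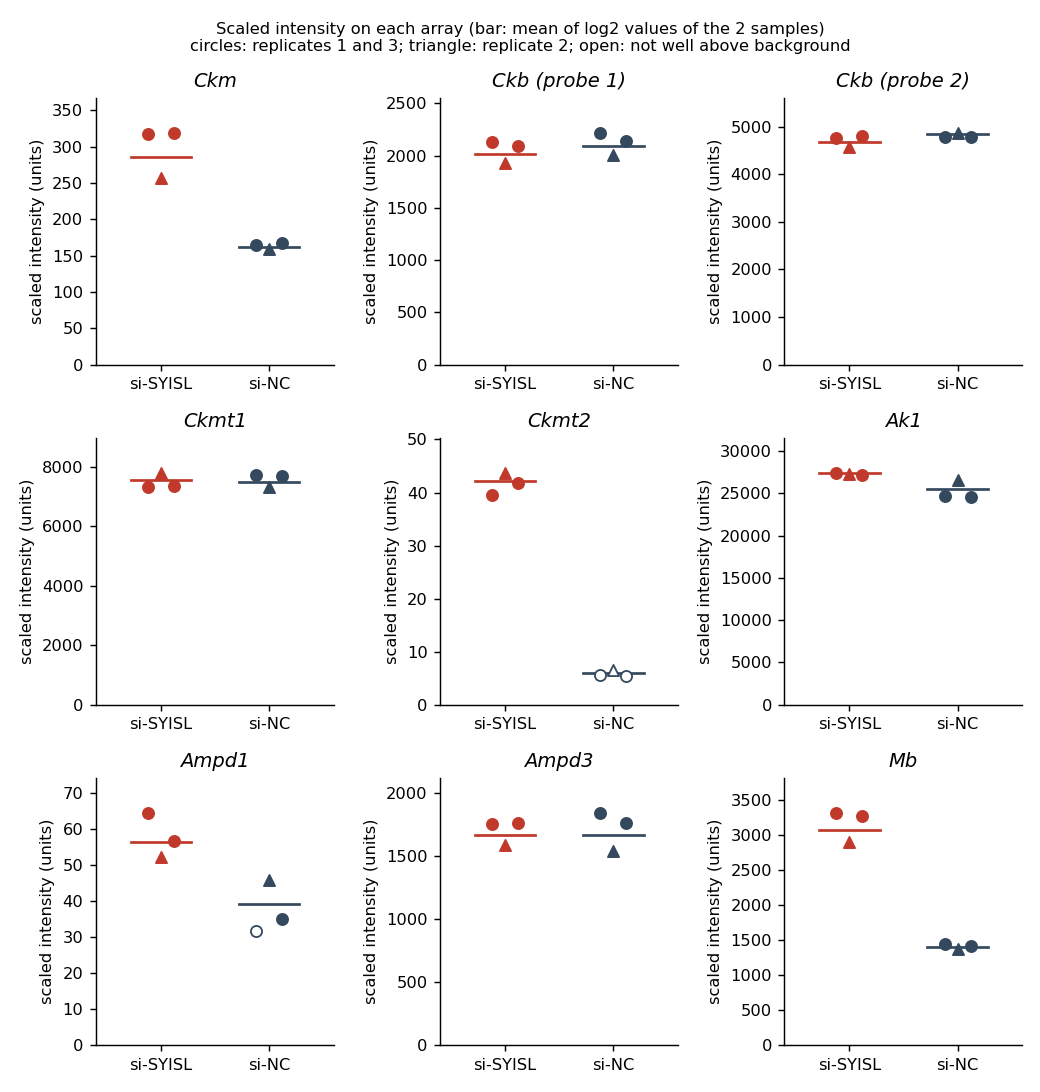
Scaled intensity (intensity units, each axis from 0) of the 9 probes on each array, si-SYISL left and si-NC right. Circles are replicates 1 and 3, counted as 1 sample, triangles are replicate 2, bars are the means of the 2 samples and open symbols are spots not well above background. At this scaling Mb, Ckm, Ckmt2, Ak1 and Ampd1 lie higher on every si-SYISL array, and Ckb, Ckmt1 and Ampd3 overlap. Of all features, 46.3% had both si-SYISL samples above both si-NC samples.

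Ckm, the cytosolic creatine kinase of muscle, had scaled intensities of 317, 257 and 319 on si-SYISL replicates 1 to 3, against 165, 159 and 167 on the si-NC replicates. Every si-SYISL array lay above every si-NC array, with replicate 2 the lowest of si-SYISL. The log2 level was 8.16 ± 0.22 in si-SYISL and 7.34 ± 0.04 in si-NC (SD, n = 2 samples each). The difference was 0.65 ± 0.15, with a 95% interval of 0.25 to 1.05 and an adjusted p of 0.123. It was 0.47 with si-SYISL replicate 2 alone and 0.85 without it, so its size rested on which si-SYISL sample was read.

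Ckb, the cytosolic form of myoblasts and brain, gave 4750, 4580 and 4810 in si-SYISL, against 4780, 4870 and 4770 in si-NC, at its brighter probe. Its other probe gave 2130, 1930 and 2090 in si-SYISL, against 2220, 2010 and 2140 in si-NC. At neither probe did the groups separate. The differences were -0.20 ± 0.11 and -0.21 ± 0.12 when each probe was tested on its own, so the probes gave the same value within their error. For the brighter probe, which stands for the gene, the 95% interval was -0.50 to 0.08 (adjusted p = 0.808). Before the subtraction of the overall median it differed by -0.04, that is, 0.97-fold.

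Ckmt2, the mitochondrial creatine kinase of striated muscle, had 39.6, 43.7 and 41.8 in si-SYISL, against 5.56, 6.46 and 5.33 in si-NC. It was well above background on 3 of 3 si-SYISL arrays and on 0 of 3 si-NC arrays. The dimmest probes that count as well above background had 11.9 to 19.3 in si-SYISL and 15.3 to 25.2 in si-NC. A probe can fail that flag at a higher value, as Ampd1 did at 31.6 on si-NC replicate 1. That floor is therefore not a strict limit. With the si-NC values of Ckmt2 raised to it, the si-SYISL level was 2.17-fold higher, before subtraction of the overall median. The fit on the values as measured gave 2.67 ± 0.14 (adjusted p = 0.0842), a size and error that rest on si-NC values below background and are not a measured difference. That adjusted p was shared with other features, Ak5 among them. With normexp background correction, which lifts dim spots by an offset, the difference was 0.62 (adjusted p = 0.09). The raw spot stood at 114.5, 113.5 and 125.5 over a local background of 41.5, 43 and 53 in si-SYISL. In si-NC it stood at 99, 90 and 98 over 59, 45 and 63.5. Spot and background were thus closer together in si-NC, where the local background was also higher on each array than on the si-SYISL array of the same number. The part of local background in the difference was not tested beyond this.

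Ckmt1, the ubiquitous mitochondrial form, gave 7310, 7790 and 7340 in si-SYISL, against 7720, 7320 and 7690 in si-NC. The groups overlapped, and replicate 2 was the high array of si-SYISL and the low array of si-NC. The difference was -0.15 ± 0.11 with a 95% interval of -0.46 to 0.15 (adjusted p = 0.964).

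The muscle and the other form of each enzyme can be read on the same array as a ratio, which no single scaling factor of the array alters. A shift that varies with brightness is not removed by such a ratio. The median log2 difference was 0.36 for the dimmest set of features and 0.08 for the brightest. On each array the probes of Ckm, Ckmt2 and Ampd1 were dimmer than those of Ckb, Ckmt1 and Ampd3. The part of brightness in the ratios was not tested. The ratio of Ckm to Ckb, as log2 minus the si-NC mean, was 0.98, 0.74 and 0.98 in si-SYISL, against 0.03, -0.04 and 0.05 in si-NC. It was thus 1.81-fold higher, with SDs of 0.17 and 0.06 on the log2 scale in si-SYISL and si-NC (n = 2 each). Ckmt2 was below background in si-NC, and with those values raised to the floor its ratio to Ckmt1 was 2.16-fold higher. As that floor is not a strict limit, this fold is not a measured difference. The ratio of Ampd1 to Ampd3 was 0.65, 0.49 and 0.47 in si-SYISL, against -0.45, 0.34 and -0.23 in si-NC. That last ratio was 1.44-fold higher, with SDs of 0.05 in si-SYISL and 0.48 in si-NC, so the difference was about as large as the spread in si-NC. With 2 samples in each group a two-sided exact permutation test cannot go below p = 0.333, and no other test was run on the ratios.

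**Figure D2:**
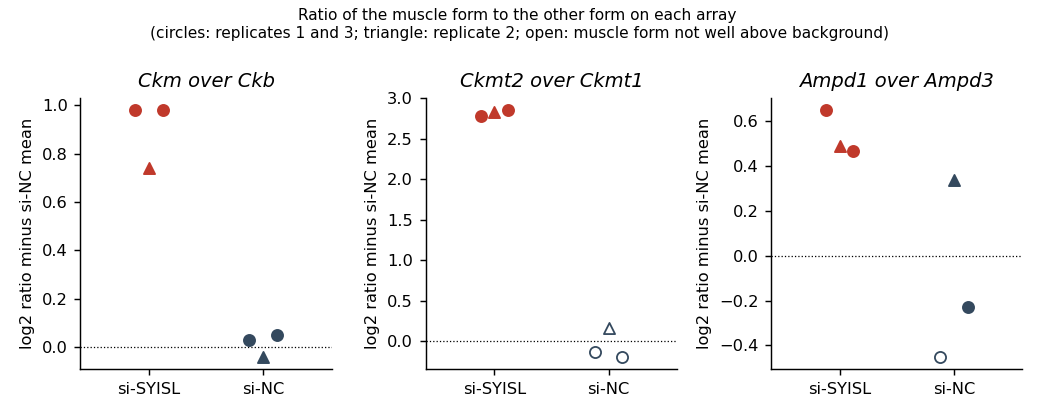
Log2 ratio of the muscle form to the other form on each array, minus the si-NC mean, for Ckm over Ckb, Ckmt2 over Ckmt1 and Ampd1 over Ampd3, si-SYISL left and si-NC right. Circles are replicates 1 and 3, triangles replicate 2, and open symbols mark arrays where the muscle form was not well above background. For Ckm over Ckb the si-SYISL arrays sit at 0.74 to 0.98 and the si-NC arrays at -0.04 to 0.05.

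Ak1, the cytosolic adenylate kinase that is abundant in skeletal muscle, gave 27400, 27300 and 27200 in si-SYISL, against 24700, 26600 and 24500 in si-NC. The si-SYISL arrays lay above the si-NC arrays, replicate 2 of si-NC being the nearest. The difference relative to the overall median was -0.07 ± 0.11, with a 95% interval of -0.37 to 0.23 (adjusted p = 0.61). The separation before that subtraction was lost after quantile normalisation or a shift to equal medians. Relative to the overall median, Ak1 was at 0.01 without si-NC replicate 2 and at 0.05 within the scan that held replicate 3 alone, so its sign was not settled.

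Ampd1, the AMP deaminase of skeletal muscle, was dim, at 64.5, 52.4 and 56.8 in si-SYISL, against 31.6, 45.8 and 35.1 in si-NC. It was well above background on 3 of 3 si-SYISL arrays and 2 of 3 si-NC arrays. The difference was 0.37 ± 0.20 with a 95% interval of -0.17 to 0.91 (adjusted p = 0.226). Its size moved with replicates of both groups. It was 0.52 without si-SYISL replicate 2 and 0.23 with that replicate alone, and 0.62 without si-NC replicate 2 and 0.13 with that one alone. It was 0.20 after quantile normalisation and 0.12 with normexp background correction. Within the scan that held replicate 3 alone, where there is no test, it was 0.60.

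Ampd3, the broadly expressed AMP deaminase, gave 1750, 1590 and 1760 in si-SYISL, against 1840, 1540 and 1760 in si-NC. The arrays overlapped, and replicate 2 was lowest in each group. The difference was -0.16 ± 0.14 with a 95% interval of -0.53 to 0.21 (adjusted p = 0.996).

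Mb, the oxygen-binding haem protein of muscle, had 3320, 2900 and 3280 in si-SYISL, against 1450, 1380 and 1420 in si-NC. The lowest si-SYISL array was well above the highest si-NC array. The log2 level was 11.59 ± 0.13 in si-SYISL and 10.46 ± 0.04 in si-NC (SD, n = 2 samples each). The difference was 0.98 ± 0.12, a 1.97-fold change with a 95% interval of 1.56 to 2.48-fold, and the adjusted p was 0.0888. It was 1.12 without si-SYISL replicate 2 and 0.85 with that replicate alone.

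Across the 8 genes, Mb, Ckm and Ampd1, in this order of size, lay above the median of all features, and Ak1, Ckmt1, Ampd3 and Ckb below it. Ckmt2 lay above it too and has no place in that order, since its si-NC values were below background. With them raised to the floor, which is not a strict limit, it was at 0.96, a value that cannot be ranked against that of Mb. The median of the 8 was 0.15, and it was the same with Ckmt2 set to 0.96. The intervals of Mb and Ckm overlapped, as did those of Ckm and Ampd1. Those of Ampd1, Ak1, Ckmt1, Ampd3 and Ckb all held 0.

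**Figure D3:**
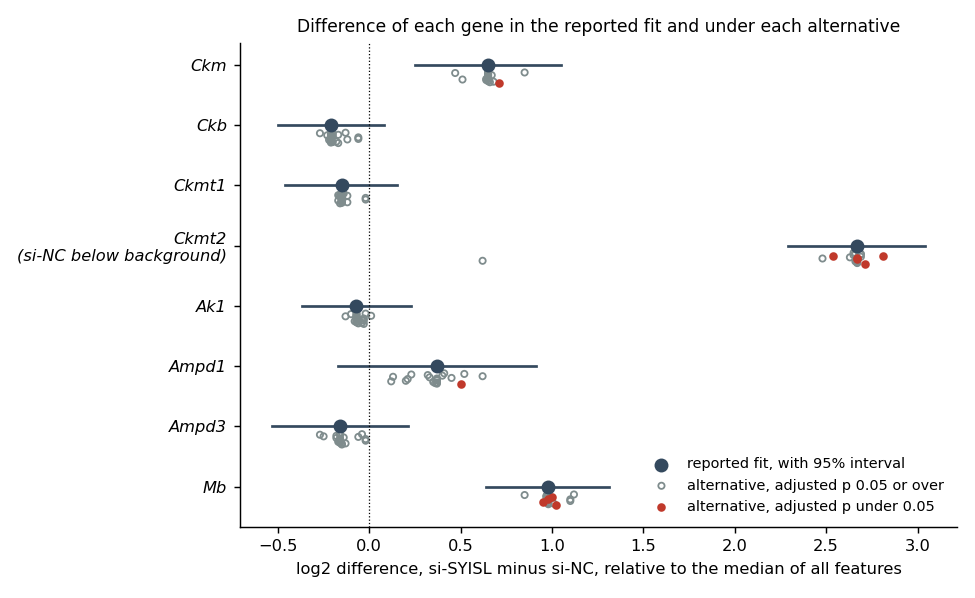
Log2 difference of each gene, si-SYISL minus si-NC, relative to the median of all features (x axis, log2 units). Large points and lines are the reported fit with its 95% interval, small open points are alternatives with an adjusted p of 0.05 or over and small filled points those under it. Ckm and Mb stay at 0.47 to 0.85 and 0.85 to 1.12, and the isolated Ckmt2 point at 0.62 is normexp background correction.

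Calls depended on how the spread and the background were estimated. Counting the 6 arrays as 6 samples, which treats replicates 1 and 3 as independent, called Ckm, Ckmt2, Ampd1 and Mb (4 of the 8 genes) together with 9762 of all features. A variance trend with robust estimation called Ckmt2 (adjusted p = 0.0219) and Mb (adjusted p = 0.0143) together with 904 features. Normexp background correction called Mb (adjusted p = 0.0442) together with 183 features. Replicates 1 and 2 of each group were scanned together and replicate 3 of each in another scan. With the scan as a block, Ckmt2 was called (adjusted p = 0.0477) together with 83 features. The calls of Ckmt2 all set si-SYISL against si-NC values below background: its adjusted p was 0.176 with no filter on dim probes, and it had no value with a filter on all 6 arrays. Within the first scan Ckm differed by 0.65 (adjusted p = 0.13), Mb by 0.97 (adjusted p = 0.0914) and Ckmt2 by 2.63 (adjusted p = 0.0877). In the second, with 1 array a group, the differences were 0.84, 1.11 and 2.88. That array is replicate 3, counted as the same sample as replicate 1, so the second scan is not an independent repeat.

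Genes whose log2 values ran closest to each gene over the 6 arrays were found among 16026 named genes above background on all of them, by the root mean square difference of values centred per gene. They are a description over arrays that include duplicates. For Ckm they were Rbpj, the DNA-binding partner of Notch (0.024 log2 units, difference 0.61 ± 0.15), and Tcap, the titin cap of the sarcomere (0.029, difference 0.70 ± 0.15). For Mb they were Uba7, which activates the ubiquitin-like modifier ISG15 (0.02, difference 0.96 ± 0.13), and the adenylate kinase gene Ak5 (0.042, difference 1.02 ± 0.12). The nearest to Ckb were Rbsn and Ppp2r2a, to Ckmt1 Dpp10 and Arfrp1, to Ak1 Mtarc2 and Lipf, and to Ampd3 Usb1 and Sptlc2. These 8 nearest genes lay at 0.0097 to 0.021 log2 units and differed by -0.23 to -0.06.

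The genes around these enzymes were then read from 7 lists, and 0 of their members passed the test over all features, in either direction. Creatine supply and mitochondrial ATP export had 10 of 10 genes tested, with a median of -0.14, against 0 for all features. Gatm, which makes the precursor of creatine, had 3220, 5970 and 3210 in si-SYISL, against 9350, 11300 and 9530 in si-NC. All si-SYISL arrays were lower, with replicate 2 the nearest to si-NC, and the difference was -1.40 ± 0.33 (adjusted p = 0.161). Gamt, which completes creatine synthesis, differed by 0.10 ± 0.14, and the creatine transporter Slc6a8, named after its value was seen, by 0.01 ± 0.13.

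Among 8 other adenylate kinases, 6 were tested and their median was 0.16. Ak5, a cytosolic form known from brain, had 295, 261 and 288 in si-SYISL, against 126, 122 and 116 in si-NC. The groups did not overlap, and the difference was 1.02 ± 0.12 (adjusted p = 0.0842). Ak8 had 185, 180 and 187 in si-SYISL, against 117, 119 and 116 in si-NC, a difference of 0.48 ± 0.11 (adjusted p = 0.12). The neural and glial markers Snap25, Rbfox3, Syt1 and Gfap were 4 of 4 tested and had summed intensities of 2320 to 4170 in si-SYISL and 450 to 1890 in si-NC. Snap25 made up most of that sum, Syt1 was above background on 0 of 3 si-NC arrays and Gfap on 1 of 3. The part of these markers in the Ak5 difference was not tested. Macrophage, endothelial and bone marker sums were 1410 to 1680, 2700 to 2790 and 304 to 314 in si-SYISL, against 1450 to 1490, 2340 to 2540 and 296 to 315 in si-NC. The adipocyte sum was 220 to 268 in si-SYISL and 181 to 218 in si-NC.

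**Figure D4:**
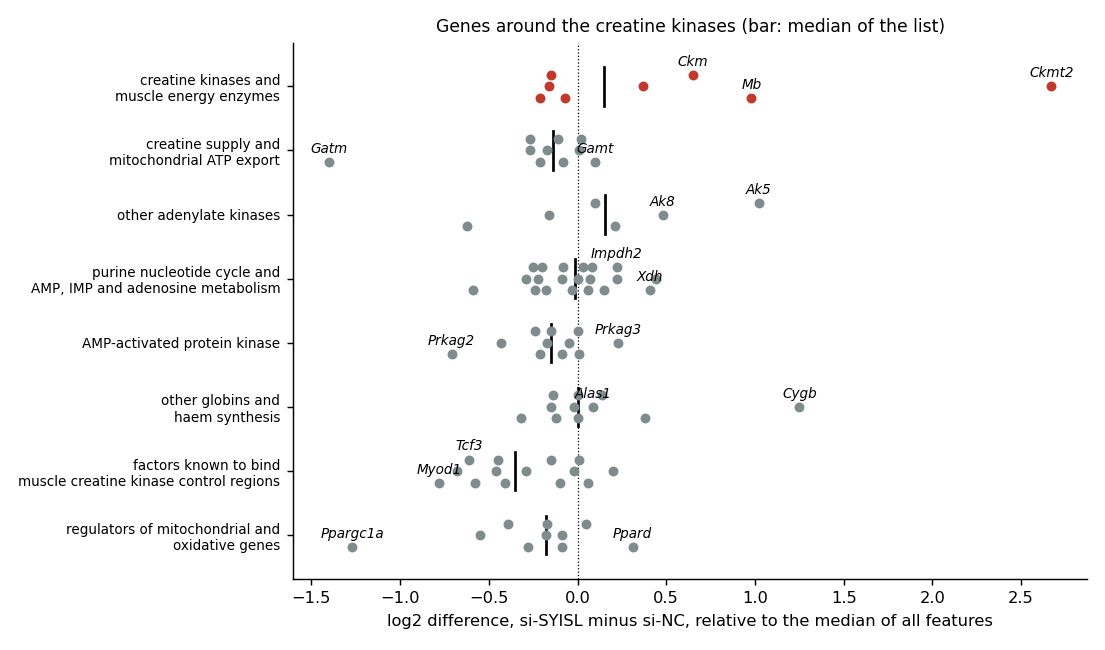
Log2 difference of each tested gene, si-SYISL minus si-NC, relative to the median of all features (x axis, log2 units), for the 8 genes and for 7 lists of genes around them. Points are genes and bars are list medians. The labelled genes are Ckmt2, Mb and Ckm of the 8 and the 2 of each list with the smallest p. Ckmt2 is drawn at its fitted 2.67, which rests on si-NC values below background and is not a measured difference. Gatm and Ppargc1a lie at -1.40 and -1.27, and Ak5 and Cygb at 1.02 and 1.25.

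The purine nucleotide cycle and the handling of AMP, IMP and adenosine, in which the AMP deaminases act, had 20 of 20 genes tested and a median of -0.01. Xdh, which makes uric acid, had 3510, 4020 and 3530 in si-SYISL, against 2770, 2350 and 2650 in si-NC, a difference of 0.41 ± 0.14 (adjusted p = 0.152). Impdh2, which draws IMP toward guanine nucleotides, differed by 0.22 ± 0.11 (adjusted p = 0.173). AMP-activated protein kinase, the sensor of the AMP that adenylate kinase produces, and its upstream kinases had 11 of 11 genes tested and a median of -0.15. Its subunit gene Prkag2 had 1090, 1140 and 1110 in si-SYISL, against 1490, 1780 and 1510 in si-NC, a difference of -0.71 ± 0.14 (adjusted p = 0.152). The subunit gene Prkag3, known from fast muscle, differed by 0.23 ± 0.22.

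The other globins and haem synthesis, which belong with Mb, had 11 of 11 genes tested and a median of 0.00. Cygb, the globin of fibroblasts and other cells, had 116, 93.2 and 115 in si-SYISL, against 26, 52.8 and 31.9 in si-NC, where it was above background on 2 of 3 arrays. Its difference was 1.25 ± 0.33 (adjusted p = 0.145). Alas1, which starts haem synthesis, differed by 0.09 ± 0.11.

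Factors known to bind the control regions of Ckm had 14 of 14 genes tested and a median of -0.35. Both si-SYISL samples lay below both si-NC samples for 7 of the 14, and above for 0. Of all features, 15.8% and 46.3% did so. Those shares were 24.1% and 30.3% after quantile normalisation, and 25% and 27.7% after a shift to equal medians. The list was not counted under those scalings. Such a count was made for all 7 lists and is given for this list alone, which had the most genes lower and the fewest higher. Myod1, which starts the muscle programme, had 2800, 3240 and 2830 in si-SYISL, against 4590, 4670 and 4570 in si-NC. The arrays did not overlap, and the difference was -0.78 ± 0.13 (adjusted p = 0.131). Tcf3, the E protein that pairs with it, had 8840, 9630 and 8760 in si-SYISL, against 12900, 12200 and 12900 in si-NC, a difference of -0.61 ± 0.12 (adjusted p = 0.16). Myod1 and Tcf3 were thus lower on arrays on which Ckm was higher. The genes of the list that overlapped between the groups were Myog, Myf5, Myf6, Mef2c, Mef2d, Srf and Maz.

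Regulators of mitochondrial and oxidative genes had 10 of 10 genes tested and a median of -0.17. Ppargc1a, a coactivator of mitochondrial genes in muscle, had 360, 371 and 356 in si-SYISL, against 697, 897 and 687 in si-NC. The difference was -1.27 ± 0.17 (adjusted p = 0.11), opposite in sign to those of Ckmt2 and Mb on the same arrays. The nuclear receptor gene Ppard had 6710, 6370 and 6680 in si-SYISL, against 4670, 4740 and 4700 in si-NC, a difference of 0.31 ± 0.11 (adjusted p = 0.144).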

How the data were processed

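Per the file headers, single-colour Cy3 arrays were read with Feature Extraction 11.0.1.1, while the submitters' processing notes name 10.5.1.1. Labelling started from 1 µg of total RNA, per the labels' protocols. The deposited gProcessedSignal is an intensity, background-subtracted and detrended within each array and not normalised between arrays. Median pixel intensity and flags per spot come from the same deposited files. A value matrix deposited by the authors gives 34456 probes on a log2 scale. Each array has a median of 8.58 and nearly equal quantiles, so it was taken as quantile-normalised and used as an alternative. Its steps are not given in the sources used here.

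Each array's 75th percentile was subtracted on the log2 scale, spots of a probe were averaged, and control spots and those with an outlier flag were dropped. Accessions gave 27234 probes a RefSeq symbol (GRCm38.p6), the array design being annotated on another build. A gene with several kept probes took the one with the highest mean. Groups were compared with limma 3.58.1 in R 4.3.3 (lmFit, eBayes, two-sided, Benjamini-Hochberg over 28555 features), with 2 residual and 2.37 prior degrees of freedom. The code was tested on simulated data. Data handling used pandas 2.3.3 and version 1.17.8 of the R package data.table, and figures matplotlib 3.10.9.

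The genes, the lists and the averaging of replicates 1 and 3 were chosen with earlier results of these data known. Named genes are the 8 genes, the 2 of each list with the smallest p, Synpo2, and the 2 nearest genes of each gene above background on all arrays, clone names left out. Any further gene was picked with its value in view, as the text says or as a cell type marker. Precision is limited by how few arrays there are.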

Additional observations from a re-analysis of the deposited data

How the results depend on the processing

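Ckm, Ckmt2, Mb and Ampd1 stayed above, and Ckb, Ckmt1 and Ampd3 below, the median of all features under every alternative run that gave them a value, and Ckmt2 and Ampd1 had none with a filter on all 6 arrays. The 6 arrays as 6 samples gave 9762 features and 4 of the 8 genes past the threshold (Ckm 0.71, Ckmt2 2.71, Ampd1 0.50, Mb 1.02). A variance trend gave 904 and 2 (Ckmt2 2.67, Mb 0.98), normexp background 183 and 1 (Mb 0.95), the scan block 83 and 1 (Ckmt2 2.67), and a median shift 1 and 0. Leaving out single arrays or samples gave 0 to 1379 features and 0 to 2 genes, Ckmt2 at 2.54 to 2.81 (2.65 without si-SYISL replicate 3), Mb at 0.85 to 1.12 and Ak1 at -0.13 to 0.01 (-0.07 without si-SYISL replicate 1), its sign turning without si-NC replicate 2, where 276 features passed with Ckmt2 (adjusted p = 0.0299). The highest count, 1379, came with si-NC replicate 2 as the lone si-NC sample, with Ckmt2 (adjusted p = 0.0106) and Mb (adjusted p = 0.0372) past the threshold. That sample is assumed to vary like those of si-SYISL. The cause of these changes was not tested. Samples with the same replicate number did not deviate together (r = -0.0311), and with a replicate block the adjusted p was 0.189 for Ckm, Ckmt2 and Mb, with 0 of the 8 genes past the threshold. Of the list medians and counts under the alternatives, 235 stayed within the spread or count limit and 45 moved. Depth of signal limits Ckmt2 and Ampd1, whose probes were at or near background in si-NC.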
